A study of Mus musculus with 48 samples.

Results

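The subunit genes of the mitochondrial respiratory chain and ATP synthase were followed in all 8 RNA-seq tables of the series. Members were taken by gene symbol, as the nuclear genes named Nduf (complex I), Sdh (complex II), Uqcr (complex III), Cox4 to Cox8 (complex IV) and Atp5 (complex V). The rule uses no difference between genotypes, but the members were chosen with earlier results of these data known. Of 23731 gene symbols listed in the series, 84 matched, and 83 had a mean of 0.5 FPKM or more in the WT controls of at least 1 table. FPKM counts sequenced fragments relative to transcript length and library size, so levels are per length. By name, complex I held 37 of the 83 genes, complex II 4, complex III 8, complex IV 17 and complex V 17. A symbol alone does not show that a gene encodes a subunit of that complex. The gene left out was Cox8c, whose highest WT mean was 0.0319 FPKM, and the lowest gene kept was Cox6a2, whose highest WT mean was 1.81 FPKM.

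Spinocerebellar ataxia type 1 is caused by an expanded glutamine repeat in ATXN1, and the study compared mutants with WT controls in inferior olive and cerebellum of male mice. Atxn1 154Q/2Q knock-in (KI) mice carry the expansion in 1 copy of the mouse's own Atxn1 gene, on C57BL/6J. ATXN1-82Q transgenic (Tg) mice, on FVB/NJ, express human ATXN1 from the promoter of Pcp2, which drives the transgene in Purkinje cells of the cerebellum. Each model, tissue and age (5 or 12 weeks) gave 3 mutant and 3 WT libraries, 48 in all, in 8 tables that were each normalized alone. Atxn1 itself had 5.80 to 6.39 FPKM in WT and 6.90 to 8.01 FPKM in KI libraries of the inferior olive. In the cerebellum it had 9.81 to 11.3 FPKM in WT and 8.36 to 11.97 in KI libraries at 5 weeks, which overlap, and 9.43 to 9.51 and 9.53 to 10.6 at 12 weeks. The human transgene was not analysed here.

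The respiratory chain passes electrons from NADH (complex I) and succinate (complex II) through complex III to oxygen at complex IV, and complex V uses the resulting proton gradient to make ATP. Complexes I, III, IV and V combine subunits encoded in the nucleus with a few encoded in mitochondrial DNA, which were not analysed here. Complex IV is unusual in that several of its small subunits exist in alternative forms made from separate genes, with a widely used form and a second form known from heart and muscle (Cox6a2, Cox7a1, Cox8b), lung (Cox4i2) or testis (Cox6b2, Cox7b2). Neurons rely on this chain for most of their ATP.

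The promoters of 2 such pairs are shown because Cox6b2 and Cox7a1 were called against WT, while their common forms Cox6b1 and Cox7a2 were not. Cox7a2 was called in a test of the difference between the models in the cerebellum at 12 weeks. The promoter of Cox6a1 is an example of a window that holds a match for NRF1, a transcription factor known to drive respiratory genes. Each is the RefSeq window (build GRCm38.p6) of 300 bases from 250 before to 50 after the gene start, 5′ to 3′ on the strand of the gene, and capitals mark matches to the motifs given after the sequences. Cox6a1 lies at chr5:115348909-115349208 (minus strand), Cox6b1 at chr7:30626065-30626364 (minus), Cox6b2 at chr7:4753045-4753344 (minus), Cox7a2 at chr9:79759804-79760103 (minus) and Cox7a1 at chr7:30183921-30184220 (plus).
Cox6a1: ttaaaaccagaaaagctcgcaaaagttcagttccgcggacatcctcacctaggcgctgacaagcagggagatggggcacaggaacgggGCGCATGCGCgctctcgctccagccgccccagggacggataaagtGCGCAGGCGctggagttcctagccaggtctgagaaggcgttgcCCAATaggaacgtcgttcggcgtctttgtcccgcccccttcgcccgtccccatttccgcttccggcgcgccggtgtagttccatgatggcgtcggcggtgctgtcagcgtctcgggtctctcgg
Cox6b1: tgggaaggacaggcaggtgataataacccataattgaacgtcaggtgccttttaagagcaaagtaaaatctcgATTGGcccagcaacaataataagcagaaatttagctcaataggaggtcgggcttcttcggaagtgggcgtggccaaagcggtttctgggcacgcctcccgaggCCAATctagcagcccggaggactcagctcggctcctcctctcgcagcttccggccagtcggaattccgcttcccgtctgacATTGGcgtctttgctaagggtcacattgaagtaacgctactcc
Cox6b2: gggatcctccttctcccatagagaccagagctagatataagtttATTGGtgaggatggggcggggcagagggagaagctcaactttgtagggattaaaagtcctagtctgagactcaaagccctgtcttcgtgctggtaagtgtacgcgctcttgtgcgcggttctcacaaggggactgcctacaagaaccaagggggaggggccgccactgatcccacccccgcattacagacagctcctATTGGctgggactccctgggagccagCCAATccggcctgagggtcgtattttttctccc
Cox7a2: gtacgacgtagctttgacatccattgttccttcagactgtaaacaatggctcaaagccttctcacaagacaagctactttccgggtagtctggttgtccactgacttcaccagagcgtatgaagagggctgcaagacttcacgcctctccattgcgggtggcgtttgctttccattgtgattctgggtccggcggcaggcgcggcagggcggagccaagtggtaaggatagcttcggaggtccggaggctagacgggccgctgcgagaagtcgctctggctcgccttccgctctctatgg
Cox7a1: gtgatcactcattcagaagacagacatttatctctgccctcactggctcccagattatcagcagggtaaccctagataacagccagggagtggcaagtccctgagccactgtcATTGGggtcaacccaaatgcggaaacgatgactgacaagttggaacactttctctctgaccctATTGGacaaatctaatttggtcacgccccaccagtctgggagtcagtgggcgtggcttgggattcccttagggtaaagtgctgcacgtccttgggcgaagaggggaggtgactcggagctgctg

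The motifs searched, on both strands, were GCGCANGCG (NRF1), CCGGAAGT (the ETS factor GABPA), TCAAGGTCA (the estrogen-related receptor), AAGATGGC (YY1), TGACGTCA (CREB) and CCAAT. Of the 83 members, 66 had a window in the RefSeq table, with 71 windows, among 32851 windows in all. The NRF1 letters were in 21 member windows (29.6%) against 6.25% of all windows, and the YY1 letters in 9 (12.7%) against 2.75%. The other shares were 7.04% against 3.89% for the ETS motif, 5.63% against 1.79% for CREB, 2.82% against 0.423% for the receptor motif and 42.3% against 37.4% for CCAAT. The median member window held 19 CG dinucleotides and the median of all windows 7. Within the pairs, the Cox6b1 window held 17 CG and that of Cox6b2 10, and the Cox7a2 window held 20 and that of Cox7a1 7. In the Cox6a1 window the NRF1 matches began at 162, 161 (minus strand) and 117 bases before the start, and the match pair at 162 and 161 overlaps. In the Cox6b1, Cox6b2 and Cox7a1 windows the only matches were to CCAAT, and the Cox7a2 window held no match. A match is a run of letters and was not tested for binding.

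The members were among the most abundant mRNAs of both tissues. In WT controls the median member stood between 128 and 163 FPKM in the 8 tables, against 9.44 to 10.6 FPKM for the median of all genes tested, and between 52 and 68 of the 83 members reached 100 FPKM. Atp5b, the catalytic beta subunit of ATP synthase, had the highest WT mean of the members in 6 tables (716 to 813 FPKM). In the Tg cerebellum the entry of Cox8a was higher (1032 FPKM at 5 weeks and 903 at 12 weeks), but in all 8 tables that entry is merged with the neighboring gene Otub1. Ndufa4, named as complex I and now placed in complex IV, and Cox4i1, the common form of the complex IV regulatory subunit, also stood above 500 FPKM in every table. By complex, WT medians in the KI cerebellum at 12 weeks were 102 FPKM (I), 99.0 (II), 182 (III), 170 (IV) and 218 (V). Between 8 and 9 members lay under 20 FPKM, and most of these were the alternative forms of complex IV.

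**Figure D1:**
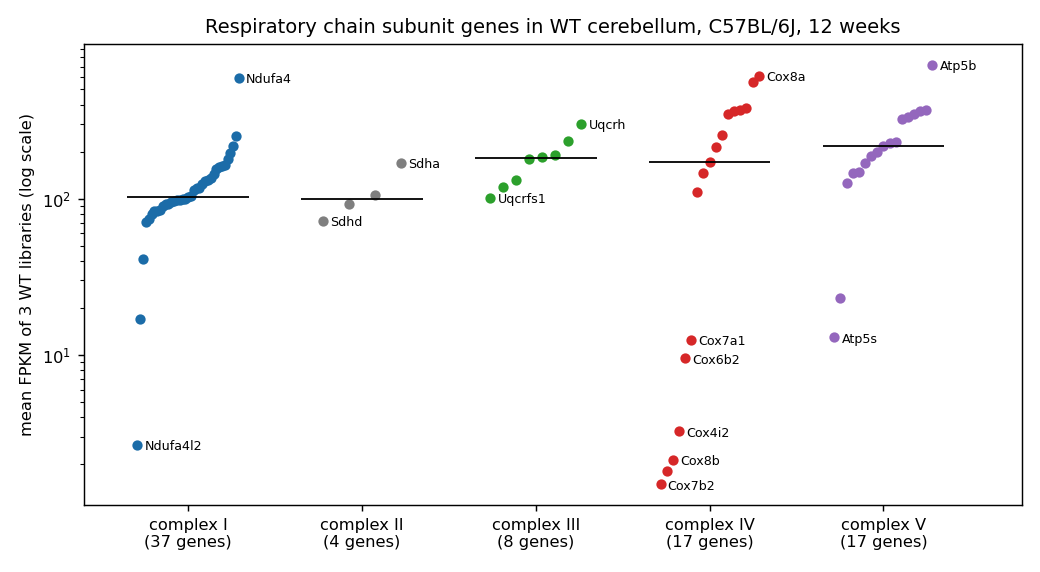
WT mean of each member gene in the KI cerebellum at 12 weeks, by complex (x axis) on a log axis in FPKM (y axis); 1 point is 1 gene. Most points lie near or above 100 FPKM (55 of 83 reach it), and the low points of complex IV are alternative forms.

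The members are short transcripts from many places in the genome. The longest protein-coding transcript had a median of 863 nt for the members and 3196 nt for all genes tested in the first of the tables (inferior olive of KI mice, 5 weeks), and 49 members lay under 1000 nt, against 5.39% of the genes tested. Their GC content was 51.4% at the median, against 50.1%. The genes lie on 19 chromosomes, with 9 on chromosome 7 and 3 on chromosome X. Among those on chromosome 7 are Cox6b2, Cox6a2, Cox7a1 and Cox8b.

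Dissections were checked on neuron markers. Htr5b, a serotonin receptor of inferior olive neurons, had 5.83 to 9.55 FPKM in the WT inferior olive and at most 0.322 FPKM in the WT cerebellum, and Gabra6, a receptor subunit of cerebellar granule cells, had 215 to 437 FPKM in the WT cerebellum and at most 3.26 in the WT inferior olive. The libraries of 1 group were uneven in tissue next to the dissection: summed markers of choroid plexus epithelium (11 genes) ran from 10.5 to 4518 FPKM, and were under 40 FPKM in 1 mutant library each of 5 tables and in WT libraries 1 and 3 of the inferior olive of KI mice at 5 weeks. Summed markers of striated muscle (6 genes) were 64.9 FPKM in Tg library 3 of the inferior olive at 12 weeks and 59.7 in WT library 1 of the Tg cerebellum at 12 weeks, against 1.42 to 5.63 in all others. The samples are described as biological replicates, and beyond that the labels do not name the animals, so p-values measure the spread between these libraries.

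As a group, the subunit genes moved little in any comparison. Cox6a2 did not pass the filter on low values (a mean of 0.5 FPKM in both genotypes) in 6 tables and Cox7b2 in 1, and every other member was tested in all 8. Of these 657 tests, 10 were called (limma with Benjamini-Hochberg adjustment over all genes of the table, adjusted p under 0.05), and they fell on 6 genes. This was 1.52% of the member tests, against 2.32% of all tests in the 8 tables. Of the 10 calls 8 belonged to complex IV, all of them alternative forms (Cox6b2, Cox4i2, Cox7a1 and Cox6a2), 1 to complex III (Uqcr10) and 1 to complex I (Ndufv3). No member of complex II or V was called. Because the tissue is mixed, fewer cells of a type and less RNA per cell cannot be told apart.

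The common core of the chain did not pass the test in any table. For 17 core subunits set by name, log2 fold changes (mutant minus WT, on log2(FPKM + 0.1)) ran from -0.28 (Cox8a, merged with its neighbors, Tg cerebellum at 12 weeks) to 0.19 (Atp5o, inferior olive of KI mice at 5 weeks). The catalytic subunits of complex V reached 0.18 (Atp5b, KI cerebellum at 12 weeks) and 0.15 (Atp5a1, KI cerebellum at 5 weeks). Ndufs1, the large iron-sulfur subunit of complex I, ran from -0.04 to 0.11, Sdha, the flavoprotein of complex II, from -0.05 to 0.06, Uqcrc1, a core protein of complex III, from -0.08 to 0.06, and Cox4i1 from -0.06 to 0.07. The smallest adjusted p of the 17 was 0.0552 (Atp5b, KI cerebellum at 12 weeks, limma).

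**Figure D2:**
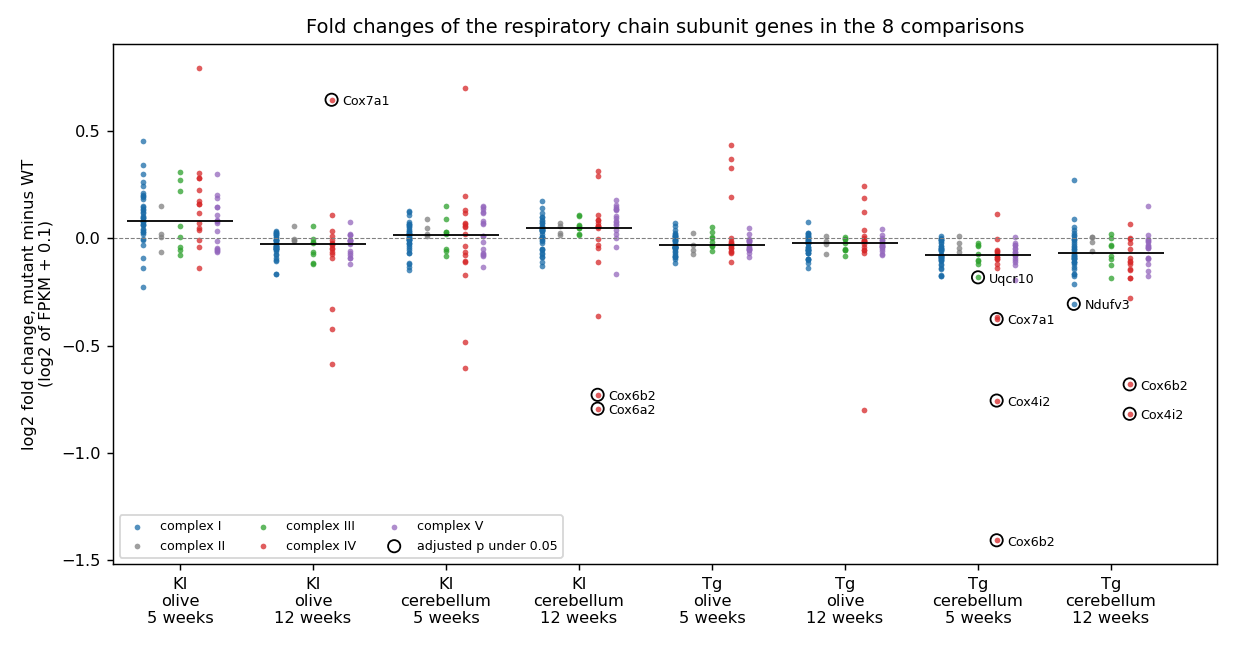
Log2 fold change of each member (y axis, mutant minus WT, on log2(FPKM + 0.1)) in the 8 comparisons, by complex; 1 point is 1 gene, circles mark an adjusted p under 0.05 (limma) and the black line is the median. The 10 circled points are the alternative forms of complex IV, Uqcr10 and Ndufv3, and the medians lie within 0.2 of 0.

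In the inferior olive of KI mice the members leaned higher at 5 weeks and lower at 12 weeks, by small amounts, and the second lean rests on the scaling. At 5 weeks 62 of 81 members tested were higher in KI, where 47.8% of all genes were, with a median log2 fold change of 0.08 against -0.01 for all genes, and 0 were called, where 0.0145% of all genes tested were called. At an unadjusted p under 0.05 there were 10 members higher and 1 lower, and 5.99% of all genes in either direction. All KI libraries lay above all WT libraries for 11 members (5.27% of all genes) and below for 2 (6.66%). Per library, the median deviation of the members from the WT mean was 0.061, -0.076 and -0.004 in WT libraries 1 to 3 and 0.178, 0.087 and -0.004 in KI libraries 1 to 3. One KI library lay inside the WT range, so the groups overlap. Ndufa3, an accessory subunit of complex I, had 354, 307 and 316 FPKM in WT and 468, 459.6 and 413 FPKM in KI libraries. The KI values all lay above the WT values, with a log2 fold change of 0.46 ± 0.09 (SE) that did not pass adjustment (limma adjusted p = 0.339). Choroid plexus marker sums in this table were 23.4, 170 and 10.5 FPKM in WT and 27.1, 1327 and 1396 FPKM in KI libraries, which overlap. Other sums did not overlap: fibroblast markers (5 genes) were 46.9 to 65.8 FPKM in WT and 71.6 to 101 in KI, Purkinje cell markers 204 to 234 and 168 to 181, and astrocyte markers (6 genes) 749.6 to 791 and 684 to 734. In this tissue most of the Purkinje cell marker sum was Pvalb (140 to 163 FPKM in WT, 108 to 121 in KI libraries). Pcp2 had 1.65 to 4.53 FPKM, so the sum is not read as an amount of Purkinje cells. The part of these marker sums in the values was not tested. The median of 0.08 was 0.037 with a trend with transcript length removed, and it was 0.052 without WT library 2, 0.055 without KI library 1 and 0.14 without KI library 3.

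At 12 weeks 63 of 82 members were lower in KI mice and 19 higher, where 47.3% of all genes were higher. The median was -0.03, against -0.01 for all genes, and quantile normalization turned it to 0.004, with 46 of 82 higher, and removing the trend with transcript length turned it to 0.006, with 44 of 82 higher. It was -0.005 without WT library 3, -0.009 without KI library 3 and -0.04 without WT library 2. There was 1 call, up, where 0.264% of all genes tested were called up, and 0 down, where 1.23% were (1.49% either way). At an unadjusted p under 0.05, 6 members passed, where 13.3% of all genes did. All KI libraries lay above all WT libraries for 1 member (8.38% of all genes) and below for 4 (10.8%). Cox7a1 (chromosome 7, 30184144 to 30186078, plus strand, in mm10), the heart and muscle form of a small complex IV subunit, had 12.3, 10.1 and 13.2 FPKM in WT and 21.8, 17.4 and 16.7 FPKM in KI libraries. All KI values were above all WT values, a rise of 0.65 ± 0.12 (log2, SE; limma adjusted p = 0.0488). Each library left out in turn ended the call, with adjusted p from 0.0529 to 0.149 and log2 fold changes from 0.53 to 0.73. Cox7a1 made up 4.02% ± 0.43 (SD, n = 3) of Cox7a1 plus Cox7a2 in WT and 6.29% ± 0.89 in KI libraries, and Cox7a2, the common form, had 283 ± 9.46 FPKM in WT and 277 ± 12.0 in KI. Summed striated muscle markers were low in all 6 libraries, at 2.05 to 2.22 FPKM in WT and 2.16 to 2.40 in KI, and the choroid plexus sum was 22.2 FPKM in KI library 3, against 883 to 4518 in the others. Sums were lower in every KI than in every WT library for astrocytes (633 to 718 FPKM in WT, 547 to 558 in KI, 2 of 6 called down), oligodendrocytes (6443 to 6830 and 5879 to 6059.6, 2 of 8), erythrocytes (419.96 to 497 and 351 to 398, 1 of 5) and Purkinje cell markers (208 to 248 and 182 to 204, 1 of 8). The Purkinje cell marker called was Calb1 (-0.52), and the paper traced the inferior olive itself by calbindin staining. The Purkinje cell marker sum is therefore not read as an amount of Purkinje cells here. The sum for inferior olive and medulla neurons (7 genes) was lower too, at 211 to 230 FPKM in WT and 182 to 199 in KI. Of its 8 entries 2 were called down, Crh (-2.03) and Htr5b (-1.56). Their part in the result was not tested. The difference of the KI effect between 12 and 5 weeks was tested with an interaction term, and 0 of 81 members were called, where 0 of 13244 genes were (0%). At an unadjusted p under 0.05, 11 members passed. The share of all genes at that level was not counted, so the 11 are not read as a result.

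In the KI cerebellum at 5 weeks no member was called, where 0.0074% of all genes tested were, and 1 member each way had an unadjusted p under 0.05, where 3.65% of all genes did. Of 83 members, 48 were higher in KI, where 49.3% of all genes were, at a median of 0.01. All KI libraries lay above all WT libraries for 4 members (4.29% of all genes) and below for 1 (5.24%). This median was decided by single libraries: it was -0.01 without WT library 3, -0.06 without KI library 1, and 0.08 without KI library 3.

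At 12 weeks in the KI cerebellum, 2 members of complex IV fell while most of the other subunit genes stood slightly higher. There were 62 of 83 members higher in KI, where 53.7% of all genes were, at a median of 0.05 (0.01 for all genes). All KI libraries lay above all WT libraries for 23 members (17.1% of all genes) and below for 4 (15%). No member was called up, where 2% of all genes were, and 2 members were called down, where 3.57% of all genes were (5.58% either way). At an unadjusted p under 0.05, 17 members passed, where 24.4% of all genes did. Complex V had the largest median of the complexes, 0.08, with 15 of its 17 genes higher and 9 of 17 with no overlap between groups. In complex III 8 of 8 genes were higher and in complex II 4 of 4, at medians of 0.05 and 0.04. Atp5b had 695, 731 and 723 FPKM in WT and 819.9, 809.9 and 803.6 FPKM in KI libraries. The groups were apart by more than their spread, but the log2 fold change of 0.18 ± 0.04 (SE) stayed just outside the threshold (limma adjusted p = 0.0552). The same held for Atp5o, a stalk subunit, at 0.15 ± 0.04 (limma adjusted p = 0.0576). Atp5b passed under 4 of 11 other settings, with a filter of 1 FPKM (adjusted p = 0.0482), quantile normalization (0.0218) and a trend with locus length (0.0494) or transcript length (0.0465) removed, and with 0 of 6 libraries left out. Atp5o passed under the last 3 of these and without WT library 1.

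The 2 that fell were low and alternative forms. Cox6b2 (chromosome 7, 4751792 to 4753094, minus strand), the testis form of a subunit at the outer face of complex IV, had 8.66, 9.88 and 10.04 FPKM in WT and 4.54, 5.86 and 6.95 FPKM in KI libraries. The groups did not overlap, and Cox6b2 fell by 0.73 on the log2 scale (SE 0.14, limma adjusted p = 0.0323). Cox6a2 (chromosome 7, 128205435 to 128206387, minus strand), the heart and muscle form of another small subunit, had 1.83, 2.02 and 1.59 FPKM in WT and 1.21, 0.982 and 0.838 FPKM in KI libraries. It fell by 0.79 (SE 0.16, limma adjusted p = 0.0315), again without overlap. Both calls were close to the threshold. That of Cox6b2 was lost without WT library 2 or 3 or KI library 1 or 2 (adjusted p = 0.0532, 0.0972, 0.0730 and 0.108), and that of Cox6a2 without WT library 2 or 3 or KI library 1, 2 or 3 (0.0541, 0.0655, 0.0620, 0.117 and 0.107). Cox6b2 was 2.67% ± 0.35 (SD, n = 3) of Cox6b1 plus Cox6b2 in WT and 1.57% ± 0.36 in KI, and Cox6a2 was 0.472% ± 0.052 of Cox6a1 plus Cox6a2 in WT and 0.253% ± 0.046 in KI. In the same libraries the Purkinje cell marker sums (8 genes) were 2420 to 2928 FPKM in WT and 2167 to 2334 in KI, and oligodendrocyte sums (8 genes) 2094 to 3164 and 1807 to 1832; the choroid plexus sum was 21.4 FPKM in KI library 1, against 447 to 1749 in the others. Astrocyte sums were 701 to 723 FPKM in WT and 635 to 662 in KI (2 of 6 called down). Also called down were 2 of 8 oligodendrocyte and 1 of 10 Purkinje cell entries, where 3.57% of all genes were. The part of these cell types in the result was not tested.

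In the Tg inferior olive no member was called at either age, where 0% of all genes tested were called; at an unadjusted p under 0.05, 6.57% of all genes and 4 of 82 members passed at 5 weeks, and 3.43% and 3 of 82 at 12 weeks. The members leaned lower, with 60 of 82 lower at 5 weeks (median -0.03) and 62 of 82 at 12 weeks (median -0.02), where 48.1% and 48.4% of all genes were higher. At 5 weeks all Tg libraries lay above all WT libraries for 1 member (5.95% of all genes) and below for 6 (6.02%), and at 12 weeks above for 0 (3.54%) and below for 7 (4.05%). At 12 weeks the choroid plexus sum was 35.1 FPKM in Tg library 3, against 709.5 to 3512 in the others. Among alternative forms, Cox7a1 at 5 weeks had 5.41, 6.49 and 5.56 FPKM in WT and 7.82, 7.40 and 8.47 FPKM in Tg libraries, a log2 fold change of 0.44 ± 0.08 (SE) with no overlap and a limma adjusted p of 0.456. Cox6b2 at 12 weeks had 9.04, 7.64 and 6.56 FPKM in WT and 4.56, 4.53 and 4.04 FPKM in Tg libraries. These groups did not overlap either, with a log2 fold change of -0.80 ± 0.11 (SE), and the limma adjusted p was 0.843. At 5 weeks the direction for Cox6b2 was the other way, with 4.41, 3.72 and 5.01 FPKM in WT and 5.32, 4.76 and 6.52 in Tg libraries, groups that overlap. One Tg library of the 5 week inferior olive (library 2) had 15.3 FPKM of Gabra6, against 0.433 to 2.90 in the other 5. Without it the median of the members at 5 weeks was -0.0003, without WT library 3 it was -0.01 and without Tg library 3 or WT library 2 it was -0.05. At that age fibroblast sums were 66.3 to 81.7 FPKM in WT and 92.8 to 147 in Tg, with 5 of 5 entries at an unadjusted p under 0.05, and choroid plexus sums 661 to 1109 and 1032.5 to 3137, with 12 of 12. Sums for inferior olive and medulla neurons (7 genes) did not overlap at either age. They were 205 to 217 FPKM in WT and 224 to 233 in Tg at 5 weeks. At 12 weeks they were 226.9 to 250 FPKM in WT and 210.8 to 226.6 in Tg. At an unadjusted p under 0.05 (limma), 1 of 7 entries passed at 5 weeks and 5 of 7 at 12 weeks. None of these entries was called, and their part in the values was not tested.

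The Tg cerebellum held most of the calls. At 5 weeks 77 of 82 members were lower in Tg and 5 higher, where 48% of all genes were higher, at a median of -0.08 (-0.005 for all genes), and all Tg libraries lay below all WT libraries for 27 (12.5% of all genes) and above for 0 (7.64%). The lean rests on the scaling: with each library centred on its median 72 of 82 were still lower, but quantile normalization left 43 of 82 higher and a median of 0.002. The median deviation of the members was 0.003, -0.011 and 0.001 in WT libraries 1 to 3 and -0.040, -0.074 and -0.123 in Tg libraries 1 to 3. All Tg libraries lay below all WT libraries, and the lowest was Tg library 3, whose choroid plexus marker sum was 22.1 FPKM, against 751 to 1578 in the other 5. Without it the median was -0.05. By complex, the lower counts were 35 of 37 (I), 3 of 4 (II), 8 of 8 (III), 15 of 16 (IV) and 16 of 17 (V). Under the deposited scaling 4 members were called down, where 3.67% of all genes were, and 0 up, where 0.423% were (4.1% either way). At an unadjusted p under 0.05, 24 members passed, where 14.5% of all genes did.

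**Figure D3:**
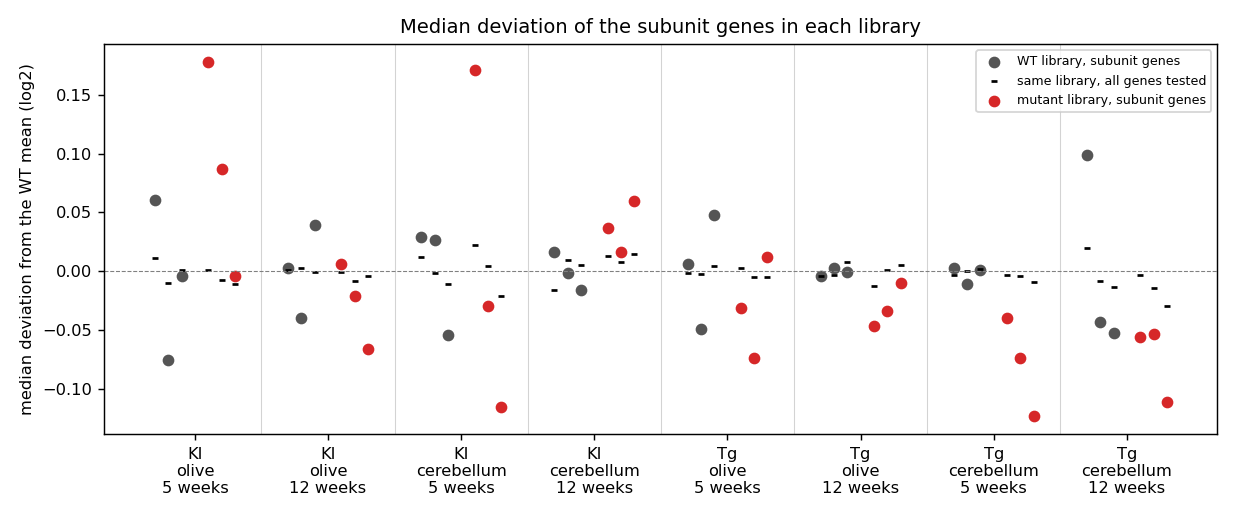
Median log2 deviation of the member genes and of all genes tested from the WT mean (y axis), for each library of the 8 tables (x axis). In the Tg cerebellum at 5 weeks the members of the 3 Tg libraries lie at -0.040 to -0.123 while all genes stay within 0.01 of 0; quantile normalization removed this lean (median 0.002).

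Cox6b2 had the largest fold change of any member in any table. It had 22.1, 20.3 and 18.2 FPKM in WT and 10.8, 8.01 and 4.91 FPKM in Tg cerebellum libraries at 5 weeks. All 3 Tg libraries lay below all WT libraries. The lowest was again Tg library 3, and the choroid plexus sums of Tg libraries 1 to 3 were 1363, 1162 and 22.1 FPKM. Cox6b2 fell by 1.41 on the log2 scale (SE 0.24, limma adjusted p = 0.0106), and by 1.10 without Tg library 3 (adjusted p = 0.00127). The call was lost without WT library 1 or WT library 2 (adjusted p = 0.0530 and 0.0501). The common form Cox6b1 had 497 ± 2.74 FPKM in WT and 479 ± 29.95 in Tg (SD, n = 3), so that Cox6b2 went from 3.90% ± 0.36 to 1.60% ± 0.51 of the pair.

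At 12 weeks Cox6b2 was again lower in the Tg cerebellum, with 17.4, 16.7 and 14.2 FPKM in WT and 8.77, 9.28 and 12.2 FPKM in Tg libraries. It fell by 0.68 (SE 0.13, limma adjusted p = 0.0213), and the groups did not overlap. Without WT library 1 or 2 or Tg library 1 or 2 the adjusted p was 0.0900, 0.0632, 0.0554 and 0.0859. Whether the effect differed between the ages was tested with an interaction term, and 0 of 82 members were called, where 0.0853% of all genes were. At an unadjusted p under 0.05, 3 members passed, a level at which the share of all genes was not counted.

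Cox4i2 (chromosome 2, 152754173 to 152765037, plus strand), the lung form of the regulatory subunit, whose expression responds to oxygen, fell at both ages in the Tg cerebellum. At 5 weeks it had 5.14, 3.76 and 3.98 FPKM in WT and 2.43, 2.53 and 2.48 FPKM in Tg libraries, a fall by 0.76 (SE 0.11, limma adjusted p = 0.00523). At 12 weeks it had 4.51, 5.67 and 4.33 FPKM in WT and 2.67, 2.39 and 3.03 FPKM in Tg libraries, and fell by 0.82 (SE 0.13, limma adjusted p = 0.0105). No Tg library reached the lowest WT library at either age, and both calls were kept with each of the 6 libraries left out in turn and under each of the 11 other settings. As a share of Cox4i1 plus Cox4i2 the change was from 0.605% ± 0.116 to 0.365% ± 0.0099 at 5 weeks and from 0.731% ± 0.139 to 0.424% ± 0.073 at 12 weeks (SD, n = 3). Cox4i2 is known from vascular mural cells, and the summed markers of endothelium and pericytes (10 genes) were 168 to 180 FPKM in WT and 163 to 174 in Tg at 5 weeks, and 157 to 235 and 179 to 242 at 12 weeks, with 0 of 10 called at either age. At an unadjusted p under 0.05 (limma), 3 passed at 5 weeks (Cldn5 and Rgs5 down, Pdgfrb up), where 14.5% of all genes did. At 12 weeks 2 passed (Cspg4 and Pdgfrb up), where 23.4% did. The list mixes both cell types, and their part in the fall of Cox4i2 was not tested. In the KI cerebellum at 12 weeks Cox4i2 had 4.03, 3.13 and 2.59 FPKM in WT and 3.00, 2.22 and 2.26 in KI libraries, groups that overlap (limma adjusted p = 0.26).

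**Figure D4:**
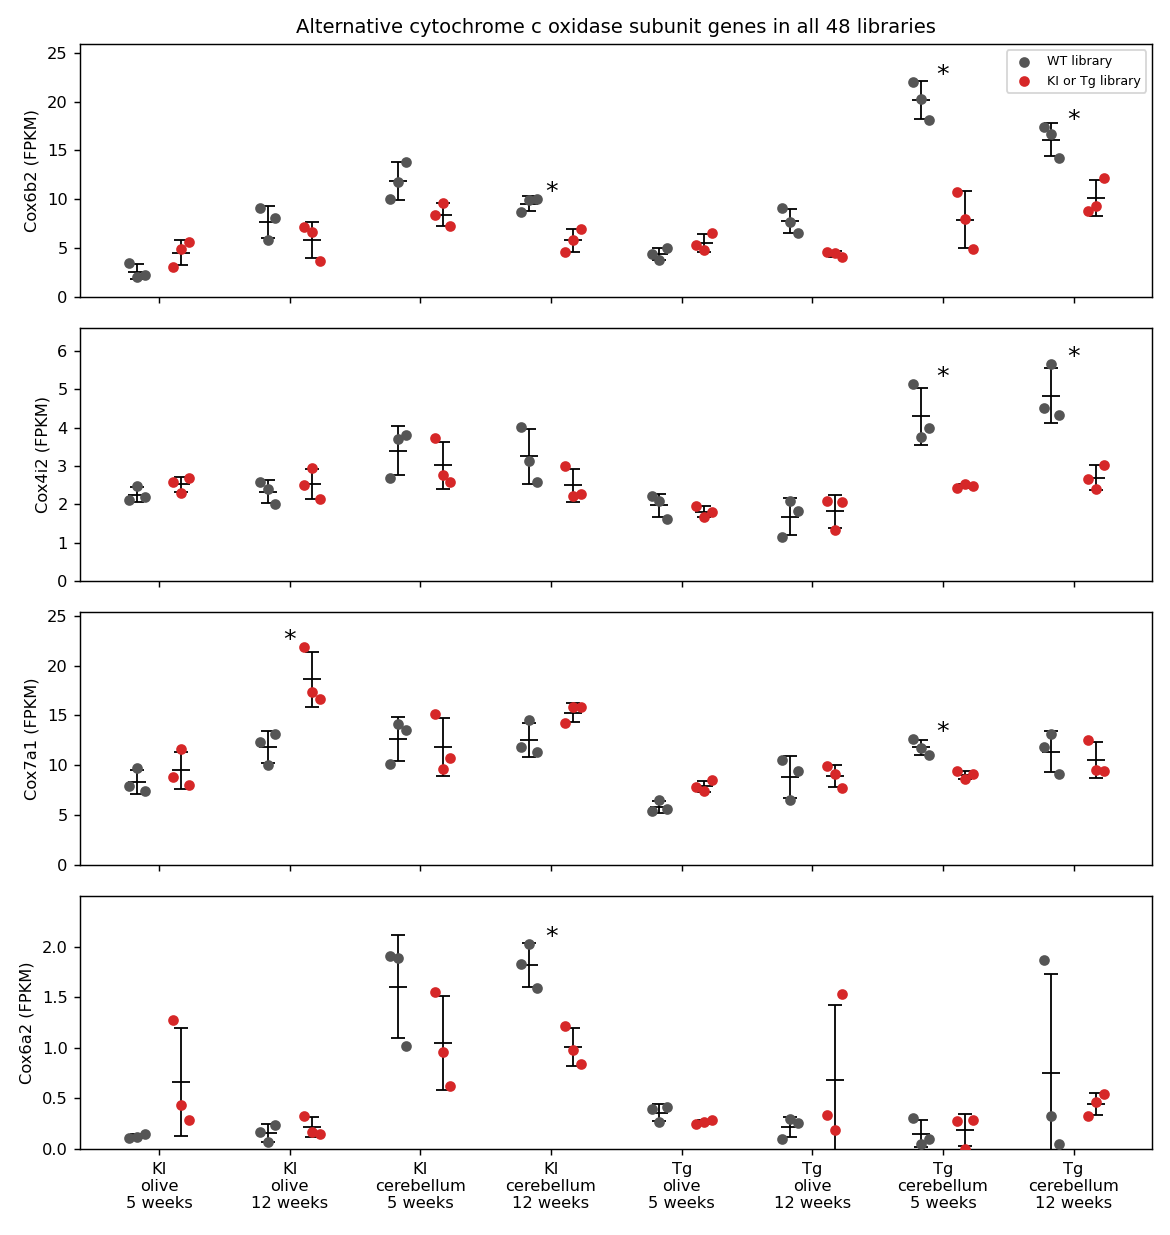
FPKM of Cox6b2, Cox4i2, Cox7a1 and Cox6a2 in each library (points) of the 8 comparisons, with the mean and SD of each group of 3 (bars) and a star where the adjusted p is under 0.05 (limma). Cox6b2 and Cox4i2 are lower in every Tg than in every WT cerebellum library at both ages, and Cox7a1 is higher in every KI than in every WT library of the inferior olive at 12 weeks.

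Cox7a1 fell in the Tg cerebellum at 5 weeks, the opposite direction to its rise in the inferior olive of KI mice at 12 weeks. It had 12.6, 11.7 and 11.03 FPKM in WT and 9.39, 8.60 and 9.17 FPKM in Tg libraries, and fell by 0.38 (SE 0.06, limma adjusted p = 0.00841). The groups did not overlap, and the call was kept with each of the 6 libraries left out in turn and under each of the 11 other settings. At 12 weeks the values were 11.8, 13.2 and 9.09 FPKM in WT and 12.6, 9.55 and 9.45 FPKM in Tg libraries, which overlap. The Tg effect at 5 weeks differed between the tissues for 2 of 82 members, where 2.51% of all genes did. These were Cox7a1, with a cerebellum minus inferior olive difference of -0.81 ± 0.11 (limma interaction, adjusted p = 0.000648), and Cox6b2, with -1.74 ± 0.31 (adjusted p = 0.00712).

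Uqcr10 and Ndufv3, both abundant genes of the chain, also passed the test in the Tg cerebellum. Uqcr10 (chromosome 11, 4701973 to 4704342, minus strand), a small subunit of complex III, had 197, 202 and 209 FPKM in WT and 182, 183 and 170.5 FPKM in Tg libraries at 5 weeks. It fell by 0.18 (SE 0.04, limma adjusted p = 0.0472) without overlap between the groups, and each library left out in turn ended the call (adjusted p from 0.0705 to 0.169). The call was also lost under 6 of 11 other settings (no filter, centring, quantile normalization, transcript length, the replicate block and no mean-variance trend), at adjusted p up to 0.219. Ndufv3 (chromosome 17, 31520115 to 31531331, plus strand), an accessory subunit of the NADH-binding module of complex I, had 152, 137 and 138 FPKM in WT and 111, 122 and 113 FPKM in Tg libraries at 12 weeks. It fell by 0.31 (SE 0.06, limma adjusted p = 0.0297), and every Tg library lay below every WT library. The call was lost without WT library 1 or 2 or Tg library 1, 2 or 3 (adjusted p = 0.0913, 0.0520, 0.0782, 0.0581 and 0.0921). It was kept under 8 of 11 other settings. Quantile normalization, the replicate block and no mean-variance trend ended it (limma adjusted p up to 0.0796).

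At 12 weeks in the Tg cerebellum 68 of 82 members were lower and 14 higher, where 45.6% of all genes were higher, at a median of -0.07 (-0.02 for all genes). Of them 3 were called down, where 5.26% of all genes were, and 0 up, where 2.25% were (7.51% either way). At an unadjusted p under 0.05, 10 members passed, where 23.4% of all genes did, and all Tg libraries lay below all WT libraries for 15 members (17%) and above for 0 (12.2%). Quantile normalization turned the lean, with 50 of 82 higher and a median of 0.02. WT library 1, the library with the high muscle marker sum, had the highest median deviation of the members (0.098, against -0.043 and -0.053 in the other WT libraries), and without it the median was -0.03. That library also had the highest Cox6a2 of its table, 1.86 FPKM against 0.048 to 0.546 in the other 5, and Tg library 3 of the 12 week inferior olive had 1.53 FPKM against 0.0999 to 0.332. Cox6a2 was not tested in the Tg tables. Purkinje cell marker sums were 2414 to 2609 FPKM in WT and 1332 to 1481 in Tg at 5 weeks, and 2205 to 2777 and 1014 to 1124 at 12 weeks, and 8 of 9 and 8 of 8 marker entries tested were called down. Microglia sums (7 genes) were 43.1 to 48.3 FPKM in WT and 53.8 to 56.2 in Tg at 5 weeks (3 called up) and 44.6 to 76.77 and 76.85 to 117 at 12 weeks (2 called up). At 12 weeks granule cell sums (6 genes) were 1353 to 1635 FPKM in WT and 1154 to 1269 in Tg (3 called down), oligodendrocyte sums 1729 to 2174 and 2329 to 2872 (1 called up), fibroblast sums 68.9 to 96.9 and 98.9 to 145 (2 called up) and choroid plexus sums 595 to 1341 and 1434 to 1919. The part of these cell types in the subunit values was not tested.

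The members leaned higher in the KI and lower in the Tg cerebellum at 12 weeks under the deposited scaling; with quantile normalization 50 of 82 were higher in Tg. Of 82 members tested in both, 52 were higher in KI and lower in Tg, 4 the other way (Ndufa4l2, Atp5s, Cox7a2l and Ndufc1), 16 lower in both and 10 higher in both. The difference of the effects was tested directly with an interaction term over both tables, and 3 of 82 members were called, where 11.8% of all genes were. Ndufv3 had 125, 134 and 131 FPKM in WT and 144, 128 and 139 FPKM in KI libraries, and its Tg minus KI difference was -0.38 ± 0.08 (limma interaction, adjusted p = 0.0162). The KI values overlap with WT while the Tg values do not. Cox7a2 had 176, 170.3 and 165 FPKM in WT and 184, 177 and 189 in KI libraries, and 235, 215 and 228 FPKM in WT and 213, 205 and 195 in Tg libraries. Its difference was -0.25 ± 0.07 (adjusted p = 0.0424), with KI above and Tg below the WT controls in every library. Ndufs4, an accessory subunit of complex I whose loss causes disease in mice and people, had 40.4, 41.9 and 40.5 FPKM in WT and 43.5, 43.2 and 46.6 in KI libraries, and 68.0, 63.7 and 57.6 FPKM in WT and 53.5, 56.4 and 58.2 in Tg libraries. Its difference was -0.29 ± 0.08 (adjusted p = 0.0452), and the Tg groups overlap. The calls for Cox7a2 and Ndufs4 were lost with each library centred on its median (adjusted p = 0.0692 and 0.0673). Of 7 other settings, Cox7a2 passed in 4 (limma interaction, adjusted p up to 0.136), Ndufs4 in 3 (up to 0.11) and Ndufv3 in 6 (up to 0.0568). Strain, transgene and table cannot be told apart in this comparison.

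**Figure D5:**
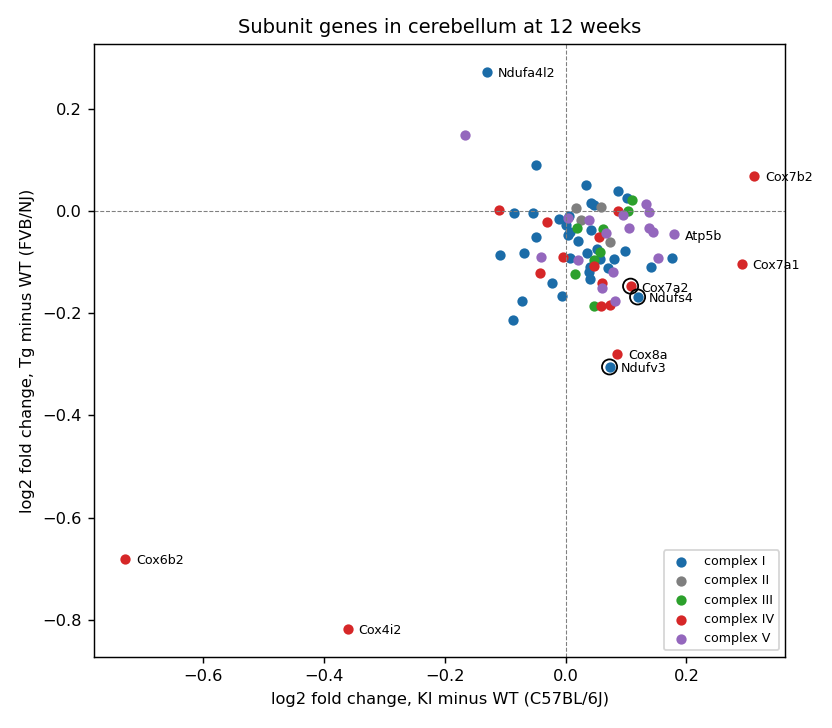
Log2 fold change of each member in the KI cerebellum (x axis) and the Tg cerebellum (y axis) at 12 weeks; 1 point is 1 gene and circles mark the 3 genes with a called interaction. Most points (52 of 82) lie right of 0 and below 0, under the deposited scaling; with quantile normalization 50 of 82 were higher in Tg.

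The remaining alternative forms were c subunit genes of ATP synthase, Ndufa4l2, Cox8b and Cox7b2. Their shares were apart between the groups, with no overlap, in 9 of 48 cases (18.8%, 6 genes in 8 tables), which were not tested. For the levels of all genes tested, mutant libraries lay all above WT for 3.54% to 17.1% of genes, by table. They lay all below WT for 4.05% to 17%. The shares of the c subunit genes also depend on each other, so this count is not read as a result. The 3 genes for the c subunit, which encode the same mature protein, held 50.3% to 57.7% (Atp5g3), 23.4% to 28.8% (Atp5g1) and 16.1% to 22.5% (Atp5g2) of their sum in WT, and 0 of the 3 were called in any table. In the KI cerebellum at 5 weeks the Atp5g1 share was 26.0% ± 0.768 (SD, n = 3) in WT and 23.8% ± 1.13 in KI, and that of Atp5g3 54.9% ± 0.919 and 57.9% ± 1.54. Ndufa4l2, a relative of Ndufa4 that is induced by low oxygen, was 0.284% to 0.464% of the pair in WT, and in the Tg cerebellum at 12 weeks it was 0.284% ± 0.0639 (SD, n = 3) in WT and 0.382% ± 0.0167 in Tg. Cox8b lay between 1.63 and 4.41 FPKM (WT means) and was uneven between libraries, as in the Tg inferior olive at 5 weeks, with 1.54, 2.18 and 5.79 FPKM in WT and 3.39, 1.37 and 9.11 in Tg libraries. Cox7b2 was 0.197% to 2.12% of Cox7b plus Cox7b2 in WT, with its highest WT mean in the Tg cerebellum at 12 weeks (3.34 FPKM). Its share was 0.651% ± 0.122 (SD, n = 3) in WT and 1.05% ± 0.167 in KI cerebellum at 5 weeks, and 0.197% ± 0.018 and 0.326% ± 0.0687 in inferior olive of KI mice at that age, where the gene did not pass the filter for a test. Cox6a2 was 0.386% and 0.472% of its pair in the WT cerebellum of the C57BL/6J mice and 0.0229% and 0.118% in that of the FVB/NJ mice (5 and 12 weeks), tables that were normalized separately and in which strain and table cannot be told apart.

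In other mitochondrial gene lists few genes were called. Under the deposited scaling most assembly factor and mitochondrial ribosome entries were lower in the Tg cerebellum. Assembly factor entries higher in Tg were 9 of 44 (median -0.04) at 5 weeks and 10 of 46 (median -0.06) at 12 weeks. For the mitochondrial ribosome they were 27 of 78 (median -0.03) and 16 of 79 (median -0.08). For the tricarboxylic acid cycle they were 5 of 16 and 3 of 16. For regulators of mitochondrial biogenesis they were 9 of 14 and 4 of 14. Of all genes 48% were higher at 5 weeks and 45.6% at 12 weeks. Counts of calls in this paragraph stand against 2% up and 3.57% down of all genes in the KI cerebellum at 12 weeks. In the Tg cerebellum these shares were 0.423% up and 3.67% down (5 weeks) and 2.25% up and 5.26% down (12 weeks). Of 44 assembly factors listed, 0 were called up and 1 down in the KI cerebellum at 12 weeks (Uqcc2, for complex III, -0.20, limma adjusted p = 0.0415), 1 up (Atpaf1, for complex V, 0.20, adjusted p = 0.0144) and 1 down in the Tg cerebellum at 5 weeks, and 0 up and 2 down at 12 weeks (Tmem70, for complex V, -0.42, adjusted p = 0.0197, and Ndufaf2, for complex I, -0.23, adjusted p = 0.0422). The gene down at 5 weeks was also Tmem70 (-0.30, adjusted p = 0.00386), in an entry merged with Ly96. Of 77 mitochondrial ribosome genes, 1 was called down in the Tg cerebellum at 5 weeks (Mrpl32) and 3 at 12 weeks (Mrpl53 in an entry merged with Ccdc142, Mrpl14 and Mrps18b). Of 16 genes of the tricarboxylic acid cycle, 1 was called, up, in the Tg cerebellum at 12 weeks (Suclg2, 0.49, adjusted p = 0.00153). In the KI cerebellum at 12 weeks 14 of 17 cycle entries were higher (median 0.06), where 53.7% of all genes were. The sum of the cycle entries was 1475 to 1481 FPKM in WT and 1552 to 1565 in KI libraries. Of 14 regulators of mitochondrial biogenesis 0 were called in any table, with medians from -0.09 to 0.05.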

How the data were processed

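RNA was measured by poly-A selected, paired-end sequencing in 48 libraries. The authors aligned reads to mm10 with TopHat2 (2.1.0) and used Cufflinks (2.2.1); the deposited values are FPKM per gene, scaled by Cuffnorm within the 6 libraries of a table, so tests stay within a table. The deposited group averages and the Cuffdiff fold changes, p-values and q-values were not used. Transcripts were assembled per table, so some entries merge neighbors, and a deposited locus can span several genes (Cox4i2 with Bcl2l1, Cox6a2 with Itgad), each with its own entry; gene positions are from GENCODE M21. Strandedness was not given in the sources used here. Counts were not used here, so depth is unknown and no counting interval is given.

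Mutants were compared with WT by limma 3.58.1 (R 4.3.3; empirical Bayes, mean-variance trend) on log2(FPKM + 0.1), for genes whose group means both reached 0.5 FPKM, Benjamini-Hochberg adjusted over the table and called under 0.05. Exact permutation of 3 against 3 cannot go below p = 0.1. Interaction terms gave 12 comparisons of effects over 2 tables each. Named members were those called, the 3 highest and 3 lowest fold changes per table, 17 core subunits, alternative forms and called interactions; the members, lists and this rule were chosen with earlier results of these data known. The method was tested on simulated data. Alternatives were other pseudocounts (0.01, 1), filters, scalings, trends removed, a replicate block, no mean-variance trend and each library left out; the trend with transcript length was added after seeing the data. Same-numbered libraries deviated together in all 3 pairs (r of 0.254, 0.115 and 0.256) in the Tg inferior olive at 12 weeks. Only there did each r exceed that of the same WT library with mutant libraries of other numbers. In the KI cerebellum at 5 weeks r was above 0 in all 3 pairs (0.499, 0.0673 and 0.11). There pairs 2 and 3 lay below the highest r with other numbers (0.194 and 0.347). The labels give no pairing, and in the Tg inferior olive at 12 weeks the block left the call count at 0. Where a member had a second entry in a table, the entry with the higher WT mean was used. One gene list is not reported here.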

Additional observations from a re-analysis of the deposited data

Results flagged for a closer look

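The genotype effect of 5 subunit genes differed between 2 models or tissues by a test of the difference itself (limma interaction term over 12 libraries, Benjamini-Hochberg adjusted over all genes). In the cerebellum at 12 weeks the Tg minus KI difference of log2 fold changes was -0.38 for Ndufv3 (adjusted p = 0.0162), -0.25 for Cox7a2 (adjusted p = 0.0424) and -0.29 for Ndufs4 (adjusted p = 0.0452). These were 3 of 82 members, where 11.8% of all genes were called. The calls of Cox7a2 and Ndufs4 were lost with each library centred on its median (adjusted p = 0.0692 and 0.0673). Of 7 other settings Cox7a2 passed in 4, Ndufs4 in 3 and Ndufv3 in 6. In Tg mice at 5 weeks the cerebellum minus inferior olive difference was -1.74 for Cox6b2 (adjusted p = 0.00712) and -0.81 for Cox7a1 (adjusted p = 0.000648). These were 2 of 82 members, where 2.51% of all genes were called. Every Tg library lay above every WT library for Cox7a1 in the inferior olive and below in the cerebellum, while Cox6b2 overlapped in the inferior olive. In the other 10 of 12 such comparisons 0 members were called. Between 1 and 16 passed at an unadjusted p under 0.05, a level at which the share of all genes was not counted.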

How the results depend on the processing

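Counts of members called changed with the setting. At 12 weeks in the inferior olive of KI mice the count was 0, against 1, with no filter, with a GC trend removed, without the mean-variance trend, and with each library left out (0 to 0). In the KI cerebellum at 12 weeks it was 2, and 0 with no filter, 1 without the mean-variance trend, 4 with quantile normalization, 4 with a locus length trend removed, 4 with a transcript length trend removed, and 0 to 5 with a library left out: 5 without WT library 1, 4 without WT library 2, 1 without KI library 3 and 0 without each of the other 3. In the Tg cerebellum it was 2 without the mean-variance trend, against 4, at 5 weeks and 2 to 4 with a library left out (2 without WT library 2), and at 12 weeks 1 to 3, against 3, with a library left out (1 without WT library 1 or 2 or Tg library 1 or 2). Quantile normalization moved the median log2 ratio to 0.068 in the KI cerebellum at 12 weeks, and to 0.0021 (5 weeks) and 0.021 (12 weeks) in the Tg cerebellum; removing the transcript length trend moved it to -0.043 in the Tg cerebellum at 5 weeks, -0.0028 in the Tg inferior olive at 12 weeks, and 0.037 (5 weeks) and 0.0058 (12 weeks, a change of sign) in the inferior olive of KI mice. Members with a called interaction for Tg minus KI in the cerebellum at 12 weeks were 1, against 3, after centring, and for Tg cerebellum minus inferior olive at 12 weeks 1, against 0, with quantile normalization. The cause was not tested.

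The replicate block uses the replicate numbers, which the labels do not give as pairs. With it the counts at 12 weeks were 0 in the KI inferior olive, 1 in the KI cerebellum and 1 in the Tg cerebellum (against 1, 2 and 3). Called interactions were 1 (against 3) for Tg minus KI in the cerebellum at 12 weeks. For the Tg inferior olive between ages there was 1 (against 0). The counts in the other 5 tables were as without the block. In the Tg cerebellum at 5 weeks the 4 genes called then held Ndufb6 in place of Uqcr10.

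Uncalled genes, all of them low except Sdhb, changed direction when a library was left out: log2 fold changes ran from -0.48 to 0.35 (Cox7b2, KI inferior olive, 12 weeks), -0.31 to 1.02 (Cox8b, Tg inferior olive, 5 weeks), -0.12 to 0.33 and -0.060 to 0.54 (Cox4i2 and Cox8b, Tg inferior olive, 12 weeks), and -0.081 to 0.21, -0.038 to 0.056 and -0.022 to 0.063 (Cox7b2, Ndufa4l2 and Sdhb, Tg cerebellum, 5 weeks). No call reversed under any alternative run. Having 3 libraries a group limits the precision.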
